A study of Mus musculus with 4 samples.

Results

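Open chromatin at the erythroid loci was measured at the β-globin genes Hbb-bs and Hbb-bt, the α-globin genes Hba-a1 and Hba-a2, Klf1 and Slc4a1, in monocytes of mouse bone marrow. The members were all peaks overlapping, by at least 1 base, 4 windows of GRCm39 named for these loci, whose placement was not checked against an annotation of that build: chr7:103440000-103580000 (β-globin genes and control region), chr11:32170000-32260000 (α-globin genes and upstream enhancers), chr8:85610000-85640000 (Klf1) and chr11:102220000-102280000 (Slc4a1). The windows are set by position and use no measured value, though they were chosen with earlier results of these data known. A peak is called a β-globin, α-globin or Klf1 peak by its window only. The windows held 17 of the 57090 peaks of the series, with 2 at β-globin, 10 at α-globin, 5 at Klf1 and 0 at Slc4a1. The series held 4 ATAC-seq libraries of cells labelled CD11b+, 2 femur-derived and 2 mandibular-derived, each made from 20000 monocytes of 2-mo-old mice. Each batch was 1 pool of 4 mice that gave both a femur and a mandible library: batch A gave replicate 1 of each skeletal site, and batch B gave replicate 2. The labels give male mice, whereas the methods on monocyte isolation name both sexes, and the strain was C57Bl/6J without any transgene or treatment. By the methods, the monocytes were the unbound fraction of a magnetic depletion of other marrow cells by a biotinylated antibody cocktail. Cells that the cocktail did not bind could then also be present. Selection with CD11b beads is described in the methods for other samples of the study, and the label CD11b+ does not say which selection was used. ATAC-seq reads come from a transposase that cuts accessible DNA, and a peak is a stretch where cuts accumulate.

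Hemoglobin, the oxygen carrier of red blood cells, is built from α-globin and β-globin chains. The adult genes Hbb-bs and Hbb-bt are driven by a distant control region, and Hba-a1 and Hba-a2 by enhancers that lie within the neighbouring gene Nprl3. Klf1 is an erythroid transcription factor that binds CACCC sequences, and Slc4a1 encodes band 3, the anion exchanger of the red cell membrane. In nucleated erythroid precursors these loci are strongly accessible, whereas mature mammalian red cells have no nucleus. Among erythroid cells, only precursors could therefore add such reads to a marrow isolate. The windows were read as a check on the erythroid content of the monocyte libraries. Other genes share or border them, so reads there need not come from erythroid cells.

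The sequences in front of the globin genes and Klf1 are shown because they carry the letters read by erythroid factors and because the gene copies resemble each other. They are the 250 bases before the transcription start in RefSeq for GRCm38.p6, a build whose positions were not joined to the peaks, and 5 of the 6 genes had an entry, the exception being Slc4a1. Each reads 5′ to 3′ on the gene's own strand, and capitals mark 4 motifs on either strand. These are GATAA, which GATA factors read, the CACCC box, the box CCAAT bound by the factor NF-Y, and the letters ATATAA of a TATA-like element. Hbb-bs lies on the minus strand (chr7:103827929-103828178), as does Hbb-bt (chr7:103813924-103814173), and Hba-a1 (chr11:32283422-32283671) and Klf1 (chr8:84901732-84901981) lie on the plus strand.
Hbb-bs: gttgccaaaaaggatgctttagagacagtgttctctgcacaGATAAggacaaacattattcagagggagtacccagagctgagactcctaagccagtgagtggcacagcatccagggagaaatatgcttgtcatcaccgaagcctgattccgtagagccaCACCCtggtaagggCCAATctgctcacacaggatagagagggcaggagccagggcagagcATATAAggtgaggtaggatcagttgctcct
Hbb-bt: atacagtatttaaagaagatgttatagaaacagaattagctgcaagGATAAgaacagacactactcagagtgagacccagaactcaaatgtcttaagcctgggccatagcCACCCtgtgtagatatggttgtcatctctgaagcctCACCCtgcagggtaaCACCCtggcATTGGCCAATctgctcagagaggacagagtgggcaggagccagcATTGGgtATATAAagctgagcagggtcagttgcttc
Hba-a1: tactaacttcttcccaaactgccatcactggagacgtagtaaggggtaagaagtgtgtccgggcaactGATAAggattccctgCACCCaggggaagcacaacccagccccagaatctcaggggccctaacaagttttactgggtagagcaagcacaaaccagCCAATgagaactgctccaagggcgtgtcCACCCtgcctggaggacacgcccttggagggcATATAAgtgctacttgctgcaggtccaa
Klf1: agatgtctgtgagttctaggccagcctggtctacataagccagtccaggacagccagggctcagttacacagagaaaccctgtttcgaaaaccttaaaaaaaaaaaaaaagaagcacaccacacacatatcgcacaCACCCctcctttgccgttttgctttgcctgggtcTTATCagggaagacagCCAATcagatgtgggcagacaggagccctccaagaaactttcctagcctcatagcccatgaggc
The 4 globin sequences, including that of Hba-a2, held all 4 motifs, as did 153 of 32851 RefSeq promoters of the same length (0.466%). Because the sequences are shown for carrying such letters, and the copies resemble each other, this share is a description and no test. Klf1 held GATAA on its opposite strand, CACCC and CCAAT, but no ATATAA. Singly, GATAA was found in 22.6% of all promoters, CACCC in 52.0%, CCAAT in 33.8% and ATATAA in 9.1%. No matches of different motifs overlapped.

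The copies share long stretches. In front of Hba-a1 and Hba-a2, 247 of the 250 bases formed 1 identical run, displaced by a few bases. Over each gene with 1000 bases on either side, the longest identical run in GRCm38.p6 was 1022 bases for Hba-a1 and Hba-a2 and 906 bases for Hbb-bs and Hbb-bt. Of the 100-base stretches of the Hba-a1 region, 46.1% also occurred in that of Hba-a2, and 26.2% of those of Hbb-bs occurred in that of Hbb-bt. The upstream sequences of the β-globin pair differed more, with 69.3% identity. Reads from such stretches can be placed on either copy, and reads of low mapping quality had been removed before counting. Whether this lowered the levels at the globin genes was not tested.

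Few peaks lay at β-globin, and none at Slc4a1, although both flanks of Slc4a1 were rich in peaks. The β-globin window had 14.3 peaks per Mb, close to the 15.5 per Mb over its 1 Mb flanks. There were 0 peaks in the 1 Mb before it and 31 in the 1 Mb after it. The first peak in the window followed a stretch of 1116603 bp without a peak, longer than 99.4% of all gaps between neighbouring peaks, whose median was 7936 bp. In the RefSeq order of GRCm38.p6, the 20 protein-coding genes before Hbb-bt were all olfactory receptor genes by symbol, as were 16 of the 20 after Hbb-bs. The Slc4a1 window lay in a gap of 72831 bp, from 102211339 to 102284169, longer than 91.2% of all gaps, while the 1 Mb on each side held 64 and 81 peaks. Since only peaks were counted, an accessible site that passed the peak caller's threshold in neither pair of libraries has no count, and no level can be given for Slc4a1.

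**Figure D1:**
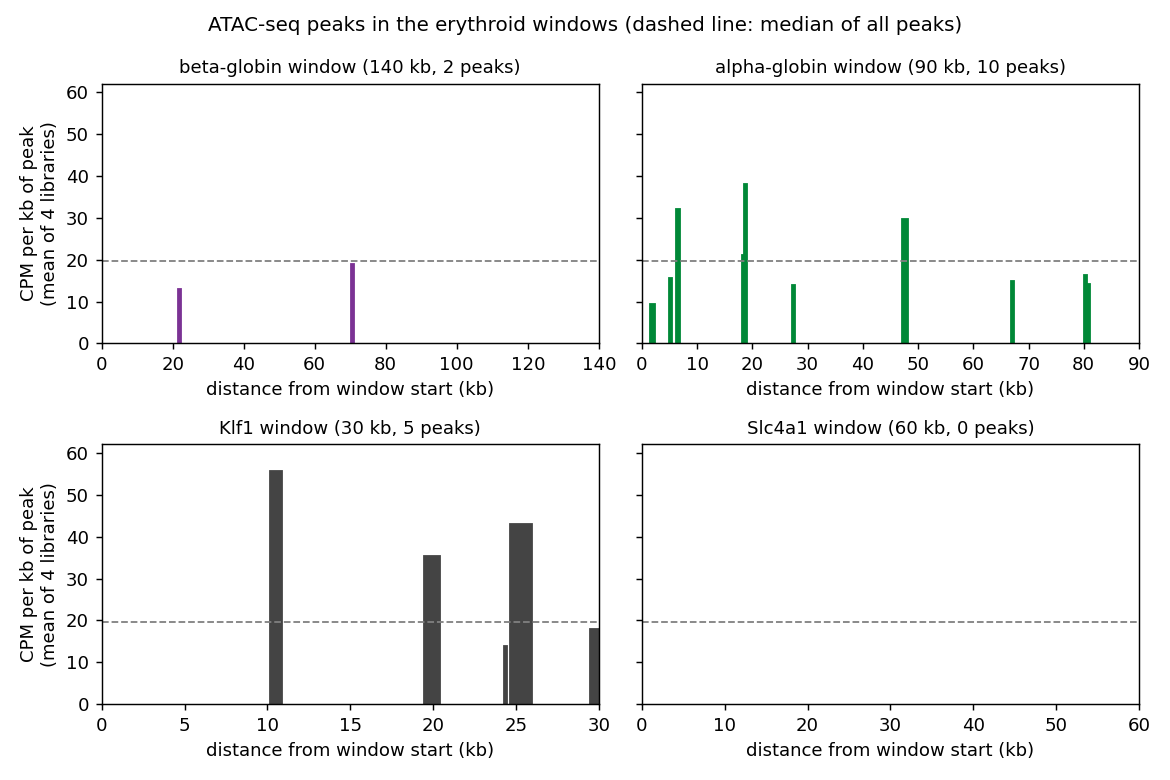
Map of the 4 windows, with the distance from the window start in kb on the x axis and the CPM per kb of each peak, averaged over the 4 libraries, on the y axis. Bars are peaks (very short peaks are widened to be visible) and the dashed line is the median of all peaks, 19.6 CPM per kb. Both β-globin bars stay under the line, the Slc4a1 panel is empty, and the highest bar, 55.7, is in the Klf1 window.

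The α-globin and Klf1 windows held more peaks than their surroundings. The α-globin window had 111 peaks per Mb against 31 per Mb over its 1 Mb flanks (18 peaks before it, 44 after it). The Klf1 window had 167 against 62 (73 peaks before it, 51 after it). Summed over peaks, the level was 1009 CPM per Mb of the α-globin window against 454 in its flanks, and 4956 against 2200 at Klf1, where CPM is the count scaled to the total count in peaks. At β-globin it was 56.6 against 208. Other genes share these windows or border them. In the RefSeq order, Snrnp25, Rhbdf1, Mpg (a DNA repair glycosylase) and Nprl3 (a regulator of mTORC1) come before Hba-x, Hba-a1, Hbq1b, Hba-a2 and Hbq1a, while Klf1 lies between Gcdh, a mitochondrial dehydrogenase, and Dnase2a, a lysosomal nuclease. Gene positions on GRCm39 were not used here, and no peak was assigned to any of these genes. In such bulk libraries, fewer cells of a type and less open chromatin per cell cannot be told apart.

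Per length, both β-globin peaks were below the median of all peaks. Peak_48750 (chr7:103461465-103461667, 203 bp) had 13.1 CPM per kb, higher than 11.1% of all peaks. Its counts in replicates 1 and 2 were 143 and 145 for femur, and 101 and 63 for mandible. Peak_48751 (chr7:103510187-103510463, 277 bp) had 19.0 CPM per kb, higher than 47.4% of all peaks, and counts of 284, 296, 212 and 112, in the same order. Femur replicate 2, the deepest library, thus had nearly the same counts as femur replicate 1.

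Scaled to depth, the β-globin peaks were lower in batch B than in batch A at both skeletal sites. Loess-normalized CPM of Peak_48750 was 3.15 and 3.38 in the femur and mandible libraries of batch A, and 1.70 and 2.51 in those of batch B. For Peak_48751 it was 6.32 and 7.12 in batch A, and 3.49 and 4.36 in batch B. In both peaks both libraries of batch B lay below both of batch A. Summed over both peaks and scaled to library size alone, the level was 9.69 CPM in femur replicate 1 (95% exact binomial interval 8.79 to 10.7) and 9.79 in mandible replicate 1 (8.73 to 10.9). It was 5.86 in femur replicate 2 (5.32 to 6.43) and 6.37 in mandible replicate 2 (5.46 to 7.39). The intervals did not overlap between batches and overlapped between sites within each batch. They cover counting error only, and are too narrow even for that, since both reads of a pair were counted. The ratio of batch B to batch A was 0.604 in femur and 0.651 in mandible. With TMM factors it was 0.574 and 0.645, and with DESeq2 size factors 0.572 and 0.645. This relation was noticed in the values and is given without a test. On the loess scale, the change from batch A to batch B was -0.43 (log2) or lower in each β-globin peak in both sites, as it was in 514 of all 57090 peaks (0.9%) and in no other member. That bound is the smaller drop of the β-globin peaks themselves, and the α-globin peak Peak_7790 came close to it, with -0.39 in femur and -0.41 in mandible. The nearest peaks outside the β-globin window were also lower in batch B at both sites. Peak_48749, before it, had 3.69 and 3.39 in femur and mandible of batch A, against 2.98 and 2.56 in batch B. Peak_48752, 12067 bp after it, had 4.74 and 3.05, against 2.89 and 2.60. Both batch B libraries lay below both of batch A in 15.8% of all peaks. In Peak_48750 the batches differed less in mandible, by -0.43, than the sites did in batch B, by 0.56. The batches differ in the pool of mice and in the handling they shared. With a single library per site and batch, these and variation between single libraries cannot be told apart. Across all peaks, the deviations of same-numbered libraries from their site means had a correlation of -0.167.

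**Figure D2:**
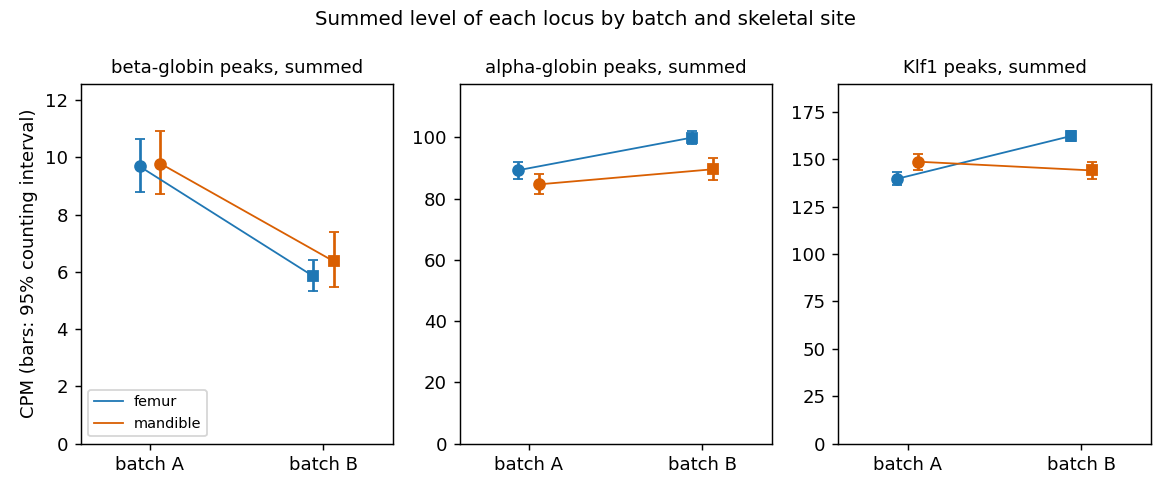
Summed CPM of the member peaks of each locus (y axis, from 0) in batch A and batch B (x axis), with femur in blue and mandible in orange. Points are single libraries, bars their 95% counting intervals, and lines join the batches of a site. The β-globin sum is 9.69 and 9.79 in batch A against 5.86 and 6.37 in batch B, whereas the α-globin and Klf1 sums are not lower in batch B, except Klf1 in mandible, with 149 against 144.

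The α-globin and Klf1 sums did not show this drop. In the femur libraries of batches A and B, the α-globin sum was 89.3 and 99.9 CPM, and in the mandible libraries it was 84.7 and 89.6. The Klf1 sum was 139.7 and 162 CPM for femur, against 149 and 144 for mandible. The ratios of batch B to batch A were 1.12 and 1.06 at α-globin and 1.16 and 0.970 at Klf1, for femur and mandible. Femur replicate 2 had the highest value at both loci. Over all members, the batches did not overlap in 9 of 17 peaks, against 32.2% of all peaks. Batch B was higher in 5 (16.4% of all peaks) and lower in 4 (15.8%). The 4 lower ones were both β-globin peaks and 2 α-globin peaks.

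Levels within the α-globin window were unequal. The 3 peaks with the most counts were Peak_7791, Peak_7787 and Peak_7785. Peak_7791 (chr11:32217183-32218151) had 28.4 and 32.0 loess-normalized CPM in femur replicates 1 and 2, and 25.8 and 28.8 in mandible replicates 1 and 2. Peak_7787 (chr11:32176247-32176945) had 22.1, 23.7, 23.6 and 20.3, in the same order. Both groups overlapped in both peaks. Peak_7785 (chr11:32171386-32172321) had 8.05, 10.0, 6.94 and 10.2, with both libraries of batch B above both of batch A, and spread over its 936 bp this was only 9.47 CPM per kb, higher than 0.836% of all peaks. The highest level per length was 38.0 CPM per kb in Peak_7789, above 87.5% of all peaks. The last 3 peaks of the window, Peak_7792, Peak_7793 and Peak_7794, had 2.52 to 3.83 CPM, and 14.3 to 16.4 CPM per kb.

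The Klf1 window held the 2 most accessible members per length. Peak_51509 (chr8:85634654-85635989, 1336 bp) had 55.3 and 55.5 loess-normalized CPM in femur, against 58.4 and 60.2 in mandible, and both mandible libraries lay above both femur libraries. Peak_51506 (chr8:85620157-85620870) had 39.4 and 44.8 in femur and 38.9 and 35.9 in mandible, so that mandible lay below femur by less than the spread between the femur libraries. Peak_51507 (chr8:85629480-85630390) had 28.6 and 39.5 in femur and 32.4 and 28.04 in mandible, and the sites overlapped. Per length, Peak_51506 stood at 55.7 CPM per kb, higher than 95.9% of all peaks, and Peak_51509 at 42.9, higher than 91.0%. The remaining peaks, Peak_51508 and Peak_51510, had 13.9 and 17.9 CPM per kb. Of all 17 members, 7 were above the median of all peaks per length, 4 of them α-globin and 3 Klf1 peaks.

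**Figure D3:**
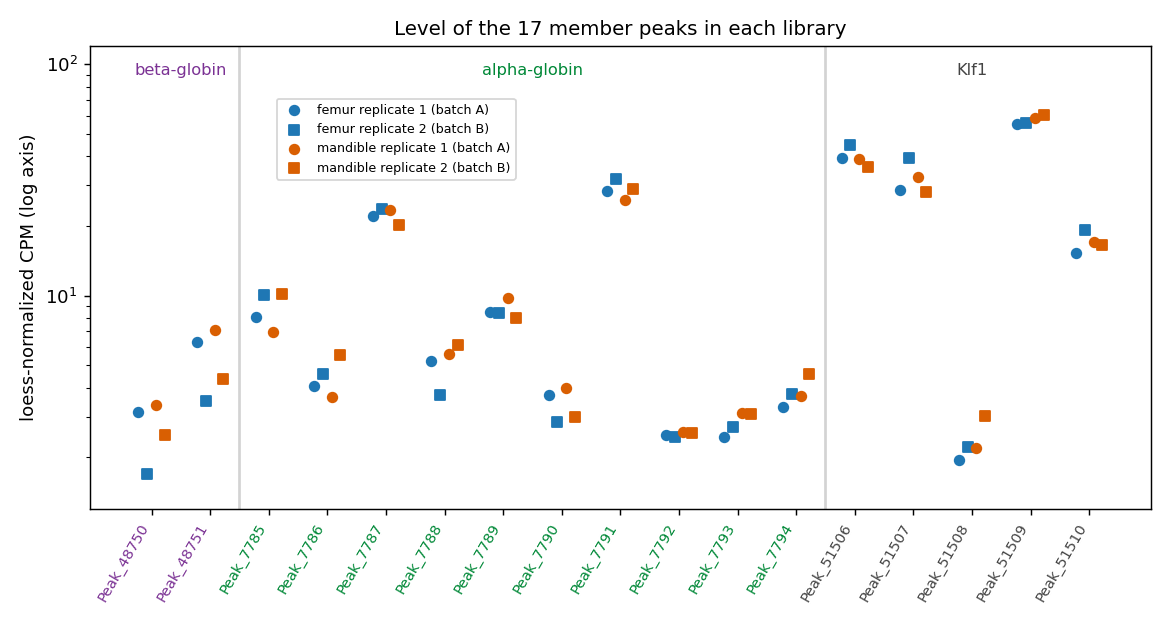
Loess-normalized CPM (y axis, log scale) of the 17 member peaks (x axis, grouped by locus) in each library, with color for the skeletal site and shape for the batch. The β-globin squares (batch B) lie below the circles (batch A), the 3 highest Klf1 peaks reach 28.04 to 60.2, and points of both sites intermingle in most peaks.

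The comparison of skeletal sites asked whether any peak in the erythroid windows differed in accessibility between mandible and femur. No peak was assigned to an erythroid gene, and other genes share or border these windows. No member differed between sites at an adjusted p-value under 0.05 in edgeR's quasi-likelihood test over all 57090 peaks (0 of 17, against 0.00701% of all peaks). With batch as a replicate block 0 of 17 were called (0.0998% of all peaks). DESeq2 called 0 of the 8 members to which it gave an adjusted p-value, against 0.0491% of the 30526 peaks that had one, and both β-globin peaks had none. At an unadjusted p-value under 0.05 there were also 0 of 17, against 2.71% of all peaks, and 0 with DESeq2 (2.81%) and with the block (2.96%). The lowest unadjusted p over the members was 0.161 in edgeR, and every adjusted p was 1. The log2 fold changes of mandible against femur ranged from -0.17 to 0.39, with 11 positive and 6 negative and a median of 0.083, against -0.0044 for all peaks. With library size alone the median of all peaks was -0.12, and 6 members were positive and 11 negative. TMM and DESeq2 each gave 8 positive and 9 negative, so the balance of signs depended on the scaling. For 2 libraries per site, the smallest two-sided p of an exact permutation test is 0.33.

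For the globin peaks the intervals were wide. Loess-normalized CPM of Peak_48750 averaged 2.42 ± 1.03 (SD, n = 2) over femur libraries and 2.94 ± 0.614 over mandible libraries (SD, n = 2), a log2 fold change of 0.30 with a 95% interval from -0.45 to 1.06 (edgeR, adjusted p = 1). For Peak_48751 these averages were 4.91 ± 2.00 and 5.74 ± 1.95 (SD, n = 2), a log2 fold change of 0.24 with an interval from -0.42 to 0.90. Within batches the differences were smaller in batch A (0.10 and 0.17, log2) than in batch B (0.56 and 0.32). Without femur replicate 2, the log2 fold changes were -0.092 and -0.13, and without femur replicate 1 they were 0.71 and 0.73. Without mandible replicate 1 they were 0.021 and -0.14, and without mandible replicate 2 they were 0.47 and 0.54. TMM gave 0.19 and 0.15. Without femur replicate 1, 3 of 17 members (Peak_48751, Peak_7788 and Peak_51507) had an unadjusted p-value under 0.05, near the share of all peaks, 16.4%. Site differences within these intervals were not detectable with these libraries.

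Among the α-globin peaks, log2 fold changes lay between -0.15 and 0.39, and the intervals reached from -0.63 to 0.96. The most positive, Peak_7788 (chr11:32188129-32188369, named after its values were seen), had 5.2 and 3.72 loess-normalized CPM for femur, and 5.58 and 6.09 for mandible. Both mandible libraries were above both femur libraries, with femur replicate 2 the lowest, and the log2 fold change was 0.39 with an interval from -0.17 to 0.96. It was 0.65 without femur replicate 1 and 0.16 without femur replicate 2. Peak_7791, with the most counts, averaged 30.2 ± 2.55 over femur and 27.3 ± 2.12 over mandible libraries (SD, n = 2), a log2 fold change of -0.15 (interval -0.50 to 0.21), or -0.071 with TMM and -0.062 with DESeq2. At the summed level of the locus, mandible and femur differed by -0.12 (log2, library size alone, which is also the shift of all peaks with that scaling), with -0.077 in batch A and -0.16 in batch B. With loess scaling, which centres all peaks, it was -0.013.

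The smallest standard error of all members, 0.12 (log2), was that of a Klf1 peak. Peak_51509 averaged 55.4 ± 0.110 over femur and 59.3 ± 1.27 over mandible libraries (SD, n = 2), a log2 fold change of 0.097 with an interval from -0.16 to 0.35 (edgeR, adjusted p = 1). With TMM it was 0.24 and with DESeq2 0.25. Its difference was positive in both batches, 0.077 and 0.12 (log2). Peak_51506 had a log2 fold change of -0.17 (interval -0.48 to 0.14; -0.064 with TMM and -0.054 with DESeq2), with -0.020 in batch A and -0.32 in batch B. Peak_51507 had -0.17 (interval -0.55 to 0.20), with 0.18 in batch A and -0.50 in batch B, so the sign differed between batches. In both, femur replicate 2 was the highest library.

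**Figure D4:**
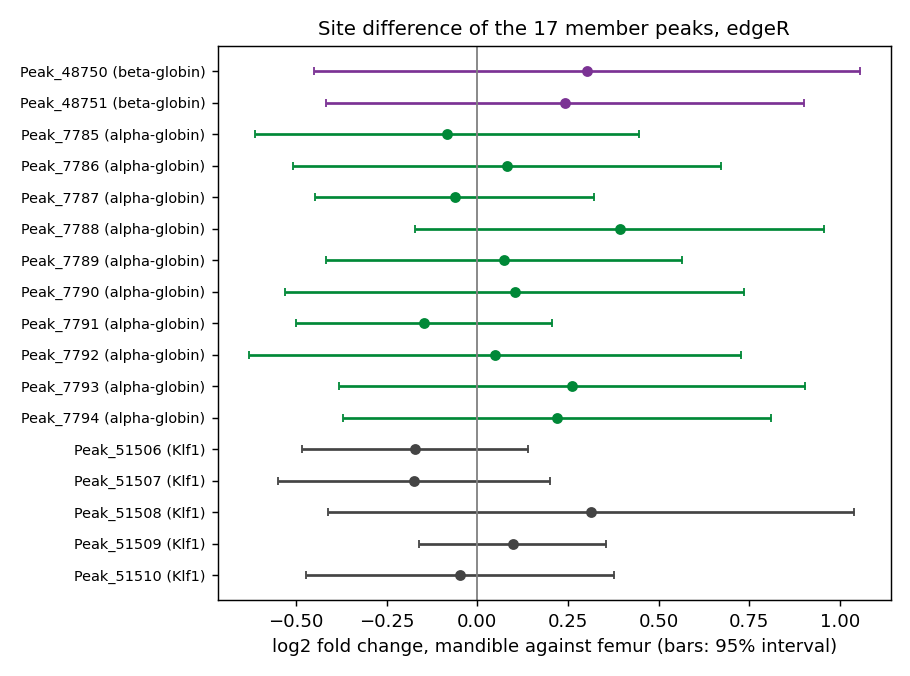
Log2 fold change of mandible against femur (x axis) of the 17 member peaks (y axis), with 95% intervals from edgeR's quasi-likelihood fit. All 17 intervals span 0, and they are narrowest at the Klf1 peak Peak_51509, from -0.16 to 0.35, and widest at the β-globin peak Peak_48750.

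Sites did not overlap in 5 of 17 members (27.1% of all peaks), 4 with mandible higher (13.3%) and 1 with mandible lower (13.8%). In 11 of 17 members both batches gave a difference of 1 sign, against 42.3% of all peaks. Near the window ends, Peak_51510 ran over the end of the Klf1 window and was the only member not wholly inside, with a log2 fold change of -0.048. Peak_51511, 692 bp past that end, had 13.7 CPM per kb and a log2 fold change of 0.27 with a standard error of 0.31. The peaks on either side of the Slc4a1 gap, Peak_10250 and Peak_10251, had 13.9 and 12.5 CPM per kb. Of the peaks outside the windows, the summed profile of the members over the 4 libraries was most like those of Peak_5240 on chromosome 10, Peak_20736 on chromosome 16 and Peak_36789 on chromosome 4, at Euclidean distances of 0.0055, 0.010 and 0.014 (log2). Within a distance of 0.1 of this summed profile lay 2486 peaks (4.36% of all peaks), so many peaks share it. For the β-globin sum 6 peaks lay within 0.1, against 2268 for the α-globin sum and 2159 for the Klf1 sum. The limit of 0.1 was not scaled to how much a profile varied between libraries.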

How the data were processed

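Reads had been trimmed (Trimmomatic) and aligned to GRCm39 (Bowtie2) by the authors. After removal of duplicates and of reads with low mapping quality, peaks came from Genrich, run on the pair of libraries of each site, and both sets were merged. They deposited counts of reads per merged peak, made with featureCounts 2.0.6 (fragments up to 1000 bp, both reads of a pair counted separately, no normalization). Total counts in peaks ranged from 27464565 to 75294068 per library. Counts of all 57090 peaks were fitted in R 4.3.3 with edgeR 4.0.16 (glmQLFit, glmQLFTest; limma 3.58.1) with loess offsets and the skeletal site as only term. edgeR's default filter removed 0 peaks. Benjamini-Hochberg adjustment was over all peaks, and 95% intervals used the t distribution with 17.7 degrees of freedom. The fit was tested on simulated data. Same-numbered libraries share a pool of mice per the labels. The correlation of their deviations from the site means across peaks was -0.167. Alternatives were TMM, library size alone, DESeq2 1.42.0, other filters and thresholds, batch as a replicate block, peaks wholly inside the windows, and each library left out. Loess scaling of the summed levels was added after the data were seen.

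The members and lists were chosen with earlier results of these data known. By the rule for named peaks, values in every library are given for the 3 peaks per locus with the most counts and for any peak with an unadjusted p-value under 0.05, and the 3 outside peaks nearest in profile are named. Nothing says that the replicate libraries differ by more than the pool of mice and its handling, so p-values measure the spread between these libraries. In edgeR the spread of each peak was estimated in part from all peaks. A list of other erythroid genes and markers of monocytes, neutrophils, B cells, T cells and megakaryocytes needed an annotation of GRCm39 and was not analysed here, so the label CD11b+ was not checked against marker genes.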

Additional observations from a re-analysis of the deposited data

How the results depend on the processing

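No member passed the threshold under any alternative (0 in each, including the replicate block, both other adjusted p-value thresholds and each library left out). At an unadjusted p-value under 0.05 there were 0 members in every fit except that without femur replicate 1, with 3 (16.4% of all peaks) and a lowest adjusted p of 0.167 in edgeR. Where a site keeps 1 library, that library is assumed to vary like the others. Over all peaks, 4 were called, against 18 with library size alone, 15 with DESeq2, 57 with the replicate block, 0 at a threshold of 0.01 and 11 at 0.1, and from 7 to 2688 with a library left out, the most without femur replicate 1. The replicate block changed no call of a member. Of 170 combinations of member and alternative, 25 turned the sign and none made a call. With TMM, Peak_7786 was at -0.039, Peak_7790 at -0.025 and Peak_7792 at -0.067 (log2). With DESeq2 they were at -0.028, -0.017 and -0.057. With library size alone they were at -0.14, -0.12 and -0.17, Peak_7789 at -0.080 and Peak_7794 at -0.020. With each library left out, the log2 fold change ranged from -0.092 to 0.71 for Peak_48750, from -0.14 to 0.73 for Peak_48751, from -0.38 to 0.16 for Peak_7785, from -0.24 to 0.35 for Peak_7786, from -0.17 to 0.038 for Peak_7787, from 0.16 to 0.65 for Peak_7788, from -0.065 to 0.20 for Peak_7789, from -0.11 to 0.30 for Peak_7790, from -0.23 to -0.051 for Peak_7791, from -0.26 to -0.070 for Peak_51506, from -0.39 to 0.091 for Peak_51507, from -0.085 to 0.50 for Peak_51508 and from -0.20 to 0.14 for Peak_51510. The summed β-globin difference of 0.056 (log2) was 0.15 with TMM, 0.16 with DESeq2, 0.245 with loess and from -0.29 to 0.46 with a library left out. The α-globin difference of -0.12 was -0.017, -0.0069 and -0.013, and from -0.20 to -0.035. The Klf1 difference of -0.044 stayed within the spread between batches, from -0.15 to 0.068 with a library left out, though TMM (0.059) and DESeq2 (0.069) turned its sign. The causes were not tested. DESeq2 gave no adjusted p-value for 9 of 17 members. The low counts of the β-globin peaks, 63 to 296, and the spread between 2 libraries limit what can be detected there.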
